A study of Mus musculus with 32 samples.

Results

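The genes described here encode the ADAMTS-like proteins and the latent TGF-β binding proteins. These 10 genes (*Adamtsl1* to *Adamtsl5*, *Thsd4*, and *Ltbp1* to *Ltbp4*) were taken from a table of 55357 genes by matching gene symbols to the Ensembl identifiers of the table. The members were chosen by the measured level of *Adamtsl2*, which was known to be higher in brain arteries of the CADASIL model than in those of non-Tg mice. The members' values in that comparison are therefore given as a description, and nothing is read from a test of it.

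ADAMTS-like proteins are secreted glycoproteins that resemble the ADAMTS proteases but lack the protease domain, and several of them bind fibrillin microfibrils. Latent TGF-β binding proteins (LTBPs) hold the inactive TGF-β complex and anchor it to fibrillin and fibronectin in the extracellular matrix, where integrins or proteases can release the growth factor. In the arterial wall, these proteins lie in the matrix made by smooth muscle cells, fibroblasts, and endothelial cells, beside elastic fibres.

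The study isolated brain arteries from mice and measured poly(A) RNA, with 1 library per mouse and 8 mice in each of 4 groups. At 3 months, *Notch3-/-* mice, which lack the Notch3 receptor of arterial smooth muscle cells, were compared with *Notch3+/+* mice. At 12 months, TgNotch3R169C mice were compared with non-Tg mice. TgNotch3R169C mice carry a genomic transgene for rat Notch3 with an Arg-to-Cys change of the kind that causes CADASIL, an inherited disease of small brain vessels, and they keep the normal mouse *Notch3* gene, as do the non-Tg mice. The transgene sits on the X chromosome, mice of both sexes were used in the study, and sex is not among the labels. All groups were untreated. Every library was a bulk sample of dissected arteries, so fewer cells of a type and less RNA per cell cannot be told apart.

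*Adamtsl2* and *Ltbp2* were the members with the largest differences between TgNotch3R169C and non-Tg arteries, and the sequences around their starts are shown for that reason. RefSeq promoters (GRCm38.p6) run from 250 bases before to 50 bases after a gene's start. They were searched on both strands for the RBPJ core TGGGAA, bound by the effector of Notch signaling, the SMAD core CAGACA, the E-box CACGTG, and the CArG box of serum response factor. Capitals mark the matches.
*Adamtsl2*, chr2:27079129-27079428, plus strand: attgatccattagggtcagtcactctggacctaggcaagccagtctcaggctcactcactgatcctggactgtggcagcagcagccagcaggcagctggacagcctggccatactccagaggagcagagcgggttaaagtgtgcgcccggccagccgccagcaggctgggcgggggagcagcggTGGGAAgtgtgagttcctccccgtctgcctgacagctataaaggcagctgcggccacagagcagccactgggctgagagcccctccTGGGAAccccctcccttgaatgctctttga
*Ltbp2*, chr12:84876442-84876741, minus strand: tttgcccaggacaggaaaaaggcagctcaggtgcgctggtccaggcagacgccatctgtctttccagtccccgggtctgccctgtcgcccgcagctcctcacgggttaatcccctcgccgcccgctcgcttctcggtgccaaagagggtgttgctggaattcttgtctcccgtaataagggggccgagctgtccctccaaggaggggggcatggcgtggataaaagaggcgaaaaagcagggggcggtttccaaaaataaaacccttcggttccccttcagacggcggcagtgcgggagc
The *Adamtsl2* promoter held 2 RBPJ cores, starting at -66 and at 21 from the gene's start, and the *Ltbp2* promoter held none of these motifs. Of all 32851 promoters, 25.6% held at least 1 RBPJ core and 3.79% held 2 or more. For 9 of the 10 members, 13 promoters were found, since some genes have several starts. The RBPJ core was present in 4 of these 13 promoters (1 each of *Adamtsl2*, *Adamtsl3*, *Adamtsl5*, and *Ltbp3*). The SMAD core was also present in 4 of the 13 (1 each of *Adamtsl5*, *Thsd4*, *Ltbp1*, and *Ltbp3*), against 21% of all promoters. No member promoter held an E-box or a CArG box, which were found in 7.15% and 1.63% of all promoters. A match is a run of letters and was not tested as a binding site.

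Libraries held 20289487 to 54481934 counted reads. *Notch3* was at 83.5 ± 12.0 CPM (reads per 1000000 counted reads, SD, n = 8) in *Notch3+/+* arteries and at 16.2 ± 1.82 CPM in *Notch3-/-* arteries. It was at 73.1 ± 8.18 CPM in non-Tg and 182 ± 34.5 CPM in TgNotch3R169C arteries. Smooth muscle markers were present in every library, with *Acta2* at 293 CPM or more. Choroid plexus RNA set 7 libraries apart: the summed level of 6 choroid plexus markers was between 8708 and 25355 CPM in 1 *Notch3-/-*, 2 TgNotch3R169C, and 4 non-Tg libraries, and at most 554 CPM in the other 25. Some of the differences below are also given without these libraries, and the others with all libraries only.

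All 10 members were well detected. The lowest count of any member in any library was 352 reads, for *Adamtsl2* in a non-Tg library, so counting error was small beside the spread between mice. Per kilobase of exon (GENCODE vM21 gene models, on another genome build than the counts, so an approximate scale), *Ltbp4* had the highest level in all 4 groups, between 136 and 156 CPM per kb. *Ltbp3* was next at 34.4 to 37.0 CPM per kb, followed by *Adamtsl3* and *Thsd4*. *Adamtsl2* and *Ltbp2* were the least abundant members in all groups. In *Notch3+/+* arteries they were at 2.63 ± 0.295 and 1.91 ± 0.462 CPM per kb. Their neighbour in that order, *Adamtsl1*, was at 6.57 ± 0.890 CPM per kb. The level of each member in each library is plotted by group.

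**Figure D1:**
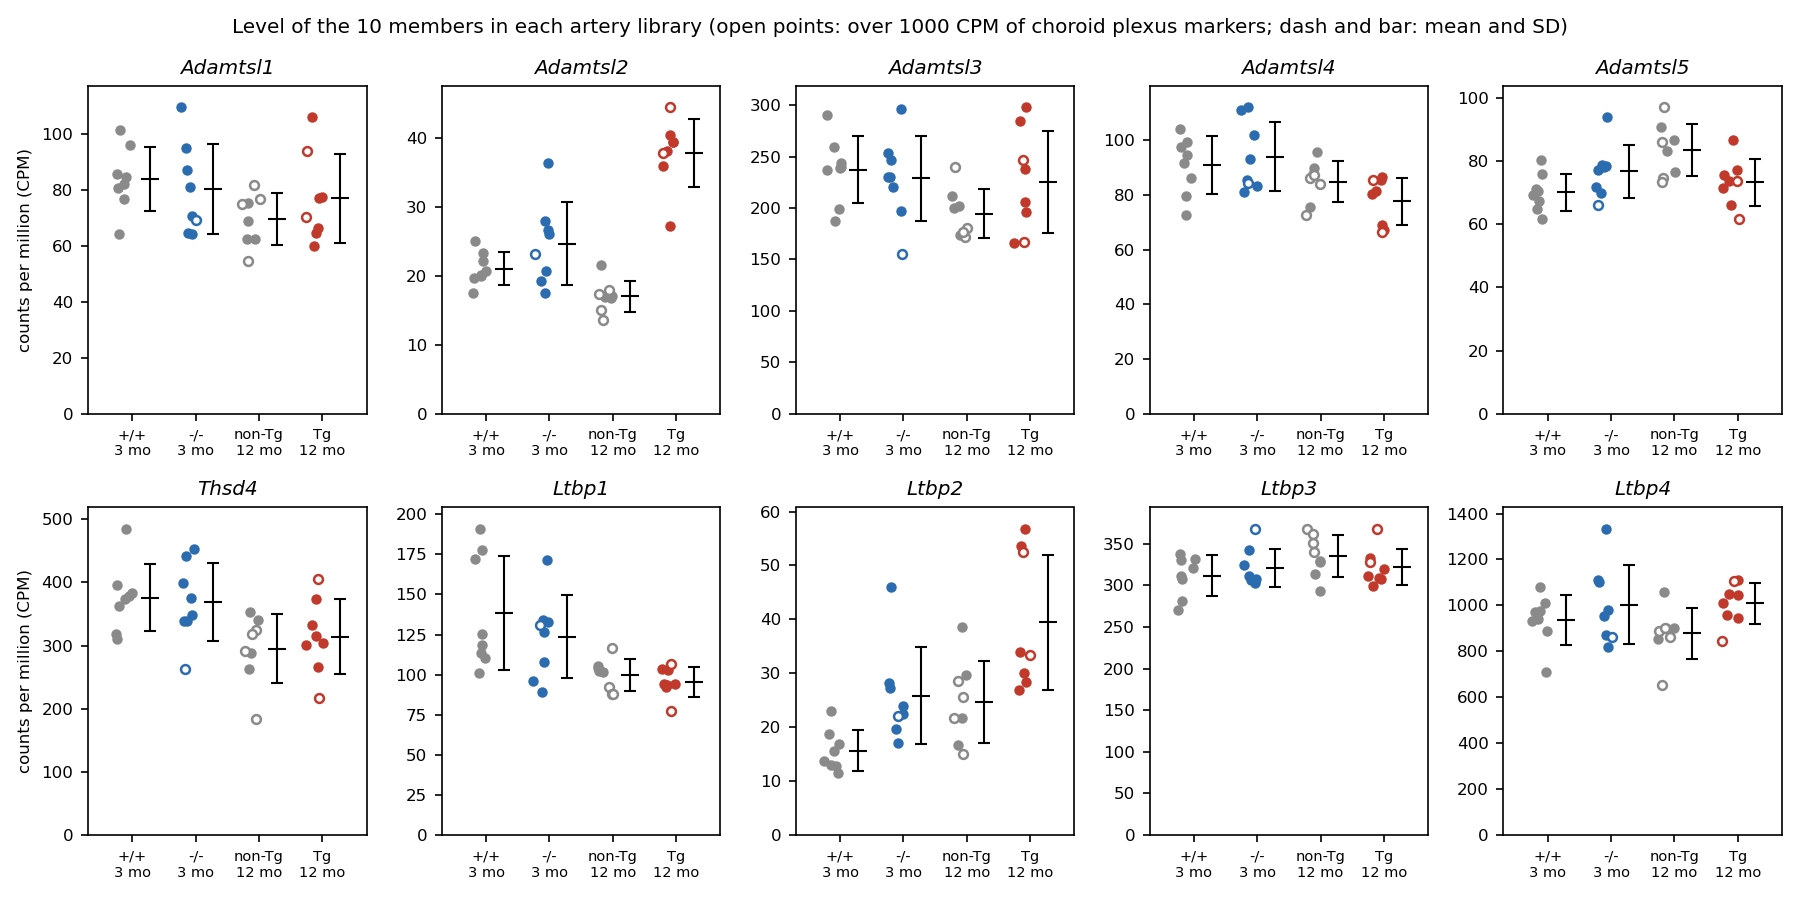
Level of each of the 10 members in CPM (y axis, from 0) in the 32 artery libraries, by group (x axis: Notch3+/+ and Notch3-/- at 3 months, non-Tg and TgNotch3R169C at 12 months). Each point is 1 mouse, open points are the 7 libraries with over 1000 CPM of choroid plexus markers, and the dash and bar give the mean and SD. The 8 TgNotch3R169C points for Adamtsl2 (27.2 to 44.5 CPM) lie above all 8 non-Tg points (13.6 to 21.5 CPM).

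*Adamtsl2* encodes a secreted protein that binds LTBP1 and fibrillin, and its mutation causes geleophysic dysplasia. In non-Tg arteries, *Adamtsl2* ranged from 13.6 to 21.5 CPM with a median of 17.0. In TgNotch3R169C arteries, it ranged from 27.2 to 44.5 CPM with a median of 38.8. The lowest TgNotch3R169C library was thus above the highest non-Tg library, and also above the highest *Notch3+/+* library (17.6 to 25.1 CPM, median 20.4). In *Notch3-/-* arteries, it ranged from 17.5 to 36.4 CPM with a median of 24.6, a range that overlapped with those of *Notch3+/+* and TgNotch3R169C mice. The highest of these was replicate 1. The next was at 27.9 CPM, just above the lowest TgNotch3R169C library. Mean levels therefore ran from non-Tg (17.0 ± 2.28 CPM, SD, n = 8) through *Notch3+/+* (21.1 ± 2.36) and *Notch3-/-* (24.7 ± 6.02) to TgNotch3R169C (37.9 ± 4.97), and ranges of neighbours in this order overlapped.

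The log2 fold change of *Adamtsl2* in TgNotch3R169C against non-Tg arteries was 1.15 (SE 0.0948), that is 2.22-fold. With any 1 of the 16 libraries left out, it was between 1.11 and 1.21, which describes the libraries on which the gene was chosen. With the choroid-rich libraries left out (6 TgNotch3R169C and 4 non-Tg libraries kept), it was 1.03. With the mean of the smooth muscle markers in the fit, it was 1.11, and with that of the fibroblast markers, it was 1.15. The SD of *Adamtsl2* within groups was 11.2% to 13.4% of the mean in 3 groups and 24.4% in *Notch3-/-* mice. In *Notch3-/-* against *Notch3+/+* arteries, the log2 fold change of *Adamtsl2* was 0.23 (95% CI -0.03 to 0.50) and did not pass the test (edgeR adjusted p = 0.735). With any 1 library left out, this value lay between 0.14 and 0.30. Whether the *Adamtsl2* difference itself differed between both mutants was not tested.

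The other ADAMTS-like genes had smaller differences in the CADASIL model. *Adamtsl3* was between 166 and 298 CPM in TgNotch3R169C arteries (median 222) and between 172 and 240 CPM in non-Tg arteries (median 190). Its groups overlapped, with a log2 fold change of 0.21 (SE 0.122). *Adamtsl1* was at 0.14 (SE 0.113) on the same log2 scale and *Thsd4*, which encodes the fibrillin-binding protein ADAMTSL6, at 0.09 (SE 0.131). *Adamtsl4*, which is mutated in inherited lens dislocation, was on the lower side (log2 fold change -0.13, SE 0.071), as was *Adamtsl5* (-0.19, SE 0.072). For *Adamtsl5*, 3 of 8 TgNotch3R169C libraries lay below the lowest non-Tg library (73.6 CPM). With smooth muscle markers in the fit, the value for *Adamtsl5* was 0.003.

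Among the LTBPs, *Ltbp2* had the largest difference in the CADASIL model. LTBP2 binds fibrillin but, unlike the other LTBPs, does not bind latent TGF-β. *Ltbp2* ranged from 15.0 to 38.6 CPM (median 23.7) in non-Tg arteries and from 26.8 to 56.8 CPM (median 33.7) in TgNotch3R169C arteries. The groups overlapped, and 3 of 8 TgNotch3R169C libraries were above all non-Tg libraries, with a log2 fold change of 0.67 (SE 0.208). It was 0.52 without the choroid-rich libraries and 0.53 with smooth muscle markers in the fit. *Ltbp4*, which serves elastic fibre assembly, differed by 0.20 (SE 0.080) on the log2 scale and was above the non-Tg mean in 7 of 8 TgNotch3R169C libraries. *Ltbp1* and *Ltbp3*, both of which bind latent TGF-β, had log2 fold changes of -0.06 each (SE 0.070 and 0.047). With smooth muscle markers in the fit, the sign for *Ltbp1* reversed (0.10).

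The choice of the family fixed the count of members past the edgeR threshold in TgNotch3R169C against non-Tg arteries, which was 1 of 10 (*Adamtsl2*), where 0.113% of 17731 genes were called. Nothing is read from that count. The median log2 fold change of the 10 members was 0.12, beside -0.01 over all genes. All 8 smooth muscle markers had a negative log2 fold change here (median -0.25) and none passed the edgeR test, although 4 had an unadjusted p below 0.05 and 1 was called by DESeq2. Their summed level was 926 to 1441 CPM in TgNotch3R169C and 1113 to 1737 CPM in non-Tg arteries, and their part in the members' differences was not tested beyond the covariate values above.

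In *Notch3-/-* arteries, none of the 10 members passed the edgeR test (0.649% of 17714 genes did). The members' differences were small: 9 of the 10 log2 fold changes in *Notch3-/-* against *Notch3+/+* arteries lay between -0.16 and 0.23, and the median was 0.05, beside 0.00 over all genes. *Ltbp2* was the exception. It ranged from 11.5 to 22.9 CPM (median 14.7) in *Notch3+/+* arteries and from 17.0 to 46.1 CPM (median 23.2) in *Notch3-/-* arteries. All 8 *Notch3-/-* libraries were above the *Notch3+/+* mean, and 4 were above every *Notch3+/+* library. The log2 fold change was 0.73 (95% CI 0.34 to 1.12) with an edgeR adjusted p of 0.106, and *Ltbp2* was the 1 member with an unadjusted p below 0.05. By DESeq2, 1 member (*Ltbp2*) was called, with an adjusted p of 0.0116, where 282 genes in all were called. By edgeR, the adjusted p of *Ltbp2* was between 0.0584 and 0.406 over the other fits. Over all fits, the log2 fold change was between 0.57 (without *Notch3-/-* replicate 1) and 1.28 (with smooth muscle markers in the fit, edgeR adjusted p = 0.0807).

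Smooth muscle markers differed in the same comparison: 5 of 8 were called lower in *Notch3-/-* arteries (median log2 fold change -0.63), and their summed level was 1373 to 2128 CPM against 2038 to 3663 CPM. The ranges of *Ltbp1* (89.3 to 172 CPM in *Notch3-/-*, 101 to 191 CPM in *Notch3+/+* arteries) overlapped, with a log2 fold change of -0.16 (95% CI -0.49 to 0.16, edgeR adjusted p = 0.901). With smooth muscle markers in the fit, the sign for *Ltbp1* reversed (0.51, edgeR adjusted p = 0.598). The summed marker levels of both groups overlapped only between 2038 and 2128 CPM. This fit therefore hardly separates marker level from group, here and for *Ltbp2* above. The gene *D030025P21Rik* lies on the other strand over 9.34% of the exon bases of *Ltbp2*, and the strand setting of the counting is not given. Its mean was at most 0.207 CPM in any group, against 15.6 CPM or more for *Ltbp2*.

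**Figure D2:**
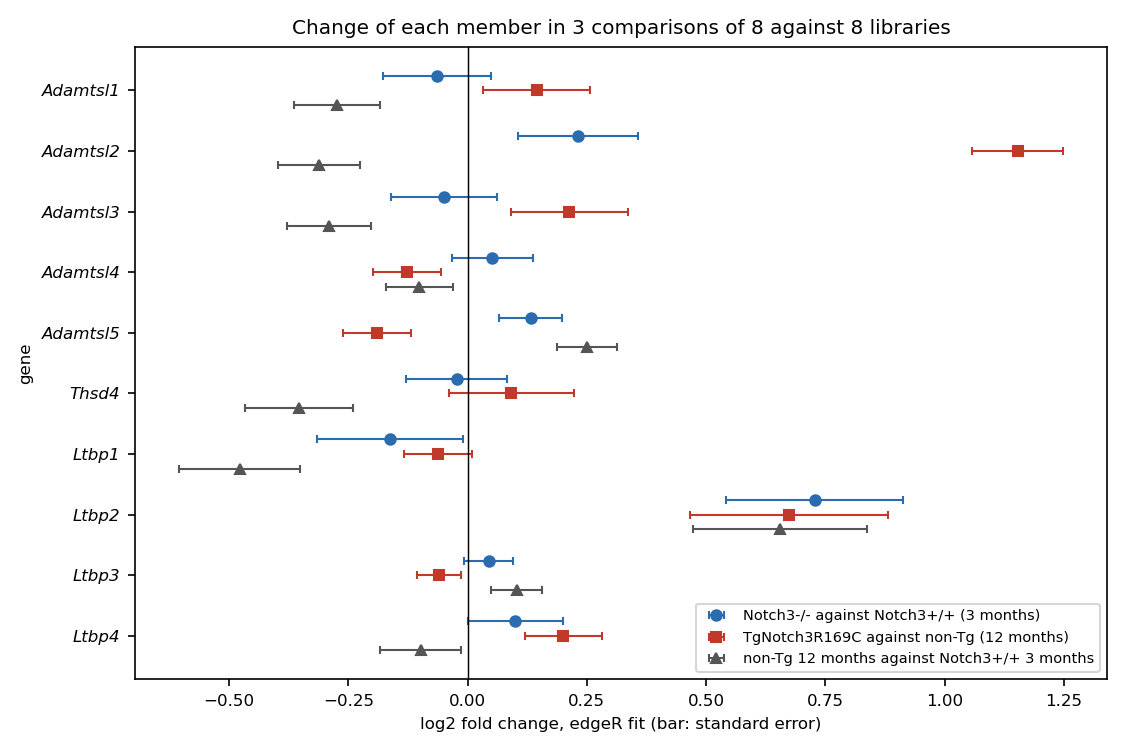
Log2 fold change of each member (x axis) in 3 comparisons of 8 against 8 libraries, from edgeR fits, with standard errors as bars. Adamtsl2 stands at 1.15 in TgNotch3R169C against non-Tg arteries and at 0.23 in Notch3-/- against Notch3+/+ arteries, and Ltbp2 lies between 0.65 and 0.73 in all 3. The comparison of non-Tg with Notch3+/+ mice shares a control group with each of the others, so the 3 are not independent.

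The control groups themselves differed for several members. Non-Tg mice at 12 months were set against *Notch3+/+* mice at 3 months, and since age, mouse line, and litters differ together, they cannot be told apart. These libraries are also the controls of the comparisons above. Of the 10 members, 4 passed the test, where 7.92% of 17643 genes did. This count includes *Adamtsl2*, on which the choice of members rested. *Ltbp2* (log2 fold change 0.66, SE 0.182, edgeR adjusted p = 0.0362) and *Adamtsl5* (0.25, SE 0.063, adjusted p = 0.0228) were higher at 12 months. *Ltbp1* (-0.48, SE 0.127, adjusted p = 0.0295) was lower. The member that completes the count was *Adamtsl2* (-0.31, SE 0.086). It was chosen for a high level in TgNotch3R169C relative to these same non-Tg libraries, which favours low non-Tg values, so its difference here is a description and nothing is read from its call. By DESeq2, 7 members were called, *Adamtsl2* among them, where 2362 genes in all were called.

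*Adamtsl5* was between 61.8 and 80.3 CPM (median 70.0) in *Notch3+/+* and between 73.6 and 97.2 CPM (median 84.7) in non-Tg arteries. All 8 non-Tg libraries were above the *Notch3+/+* mean, and 5 were above its whole range. *Ltbp1* was between 101 and 191 CPM (median 122) in *Notch3+/+* and between 87.7 and 117 CPM (median 102) in non-Tg arteries. All 8 non-Tg libraries were below the *Notch3+/+* mean, and the *Notch3+/+* libraries were spread more widely. *Adamtsl3* (-0.29, edgeR adjusted p = 0.0526), *Thsd4* (-0.35, adjusted p = 0.0625), and *Adamtsl1* (-0.27, adjusted p = 0.0696) did not pass, and *Adamtsl4*, *Ltbp3*, and *Ltbp4* had log2 fold changes between -0.10 and 0.10.

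Most of these calls changed with single libraries. *Adamtsl5* was called in all 16 fits that left out 1 library, *Ltbp1* in 11, and *Ltbp2* in 6. Without the 4 choroid-rich non-Tg libraries, none of the 10 members passed the edgeR test (2.22% of genes did). As with all libraries, 7 had an unadjusted p below 0.05. The share of all genes below that value was not counted, so nothing is read from such counts of members. Without the choroid-rich libraries, the log2 fold changes were 0.26 for *Adamtsl5* (edgeR adjusted p = 0.0626) and 0.77 for *Ltbp2* (0.0805). Those of *Ltbp1* and *Adamtsl2* were -0.43 (edgeR adjusted p = 0.186) and -0.23. All 8 smooth muscle markers were called lower in the 12-month controls (median log2 fold change -0.93), with summed levels of 1113 to 1737 CPM against 2038 to 3663 CPM. These ranges did not overlap, so a fit with the mean of these markers cannot separate marker level from group. In that fit, none of the 10 members and none of all genes passed by edgeR, and 3 members had an unadjusted p below 0.05. The sign for *Ltbp1* reversed (0.39, edgeR adjusted p = 0.452). The log2 fold changes of *Ltbp2* and *Adamtsl5* were then 1.36 and 0.46.

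*Ltbp3* varied least within groups, with an SD of 6.63% to 7.85% of its mean. Its level was compared between libraries with and without much choroid plexus RNA. In non-Tg mice, the 4 choroid-rich libraries were at 340 to 368 CPM and the other 4 at 293 to 330 CPM. The 1 choroid-rich *Notch3-/-* library was at 367 CPM, above the other 7 (302 to 343 CPM). Of the 2 choroid-rich TgNotch3R169C libraries, 1 was at 367 CPM, and the other, with more choroid RNA, was at 329 CPM, within the range of the other 6 (299.8 to 333 CPM). The choroid-rich libraries were thus higher in *Ltbp3*, with this 1 exception. Among the 6 choroid-rich TgNotch3R169C and non-Tg libraries, r was -0.552 (p = 0.250) and ρ was -0.6 (p = 0.376, permutation tests within groups). Without the 2 farthest, r was -0.995, but only 4 libraries with group means subtracted remained, so nothing is read from it. In the 25 libraries without much choroid RNA, r was 0.114 (p = 0.682) and ρ was -0.109 (p = 0.630, permutation tests within groups), and r was -0.319 without the 2 farthest libraries. No r over all 32 libraries is given, since the libraries fell into separate sets.

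To describe which cell type markers each member went with, log2 CPM was compared with marker lists over 32 libraries after the group means were subtracted. Of 90 pairs of a member and a list, 11 passed (p from 100000 permutations within groups, Benjamini-Hochberg adjusted over 100 pairs with those of the choroid plexus list). *Ltbp1* went with smooth muscle markers (r = 0.751, adjusted p = 0.001, ρ = 0.716, adjusted p = 0.005, permutation tests), also without the 2 libraries farthest from the median of the list (r = 0.641). *Ltbp4* went with endothelial markers (r = 0.684, adjusted p = 0.002, ρ = 0.609, adjusted p = 0.0168, permutation tests), with r = 0.579 without the 2 farthest libraries. *Adamtsl5* went with the smooth muscle list (r = 0.625, ρ = 0.615), the fibroblast list (r = 0.619, ρ = 0.571), and 4 other lists. *Ltbp1* also passed with endothelial markers (r = 0.620), *Ltbp4* with fibroblast markers (r = 0.508), and *Adamtsl4* with macrophage and microglia markers (r = 0.530). None of these last pairs passed by Spearman's ρ or without the 2 farthest libraries. By Spearman's ρ, 4 of the 11 pairs passed, and without the 2 farthest libraries, 5 passed.

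*Adamtsl2* passed with none of the 9 lists. Its r was 0.15 for smooth muscle, 0.11 for fibroblast, 0.05 for endothelial, and 0.08 for pericyte markers, with the lowest values for astrocyte (-0.33) and oligodendrocyte markers (-0.36). For oligodendrocyte markers, ρ was -0.504 (adjusted p = 0.0559, permutation test), and r was -0.450 without the 2 farthest libraries. *Ltbp2*, *Thsd4*, *Adamtsl1*, and *Adamtsl3* also passed with none of them, nor did *Ltbp3*. Depth and tissue makeup are shared by all genes of a library, so these relations describe the libraries only.

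**Figure D3:**
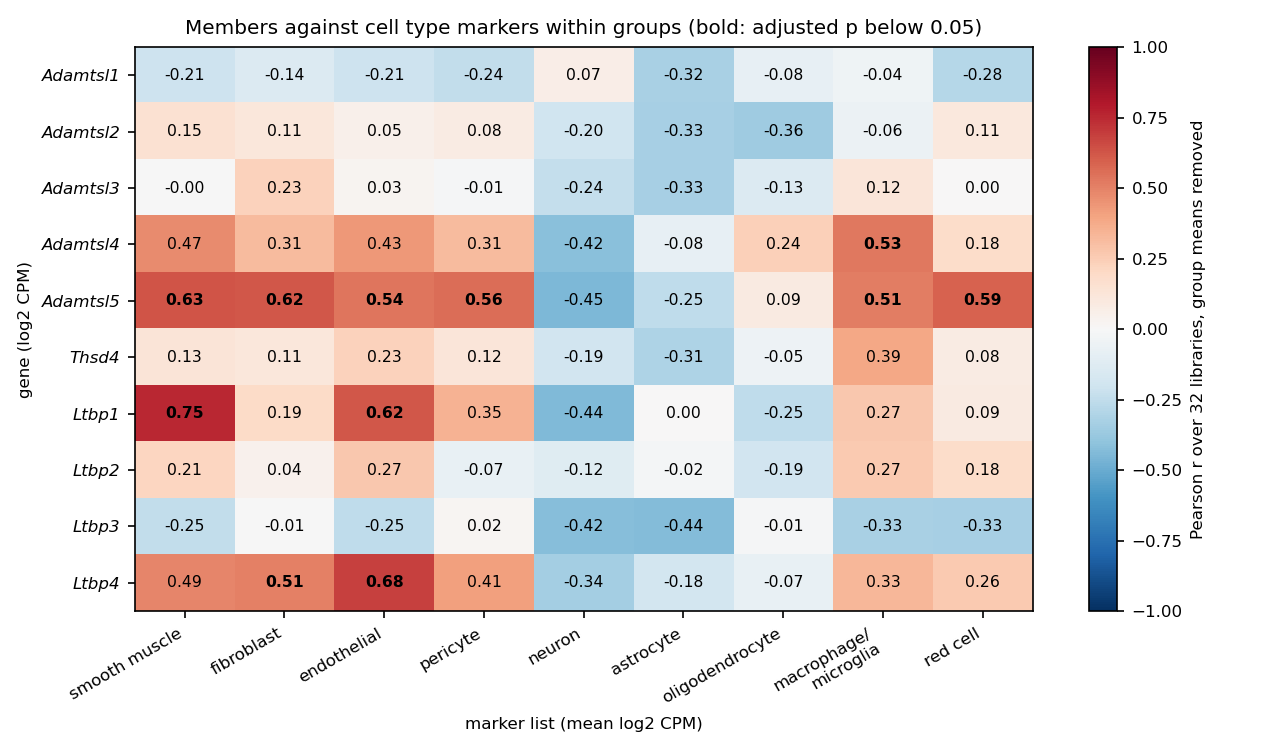
Pearson r between each member (rows, log2 CPM) and the mean of each cell type marker list (columns, log2 CPM) over 32 libraries with group means removed. The color and number in each cell give r, and bold marks an adjusted permutation p below 0.05. Ltbp1 with smooth muscle markers (0.75) has the highest value, and the row of Adamtsl2 has none in bold.

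Between members, 10 of 45 pairs passed by Pearson's r and 3 by Spearman's ρ, all of which were among the 10. *Adamtsl1* and *Thsd4* had the closest relation (r = 0.705, adjusted p = 0.0009, ρ = 0.745, adjusted p = 0.00135, permutation tests), with r = 0.674 without the 2 farthest libraries. The other pairs that passed both ways were *Adamtsl4* with *Adamtsl5* (r = 0.568, ρ = 0.564) and *Adamtsl4* with *Ltbp1* (r = 0.540, ρ = 0.580). *Adamtsl2* and *Ltbp2*, the members with the largest log2 fold changes in TgNotch3R169C arteries, did not pass (r = 0.410, adjusted p = 0.111, ρ = 0.232, adjusted p = 0.577, permutation tests).

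Over 12561 genes, those with the within-group pattern most like *Adamtsl2* included *Per1* (r = 0.658), a clock gene, *Plekhg2* (0.618), *Srf* (0.605), which encodes serum response factor, and *Coq10b* (0.5999). Without the 2 farthest libraries, the values were 0.723, 0.560, 0.518, and 0.431. For *Ltbp2*, they were *Gcnt1* (r = 0.749), *Slc43a3* (0.728), *Kctd12* (0.720), *Fndc1* (0.714), and *Col16a1* (0.712), a fibril-associated collagen. The highest value for any member was that of *Thsd4* with *Mrc2* (r = 0.943), a collagen receptor, singled out after its value was seen. These genes were picked as the highest of many, so no p is given.

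Other genes of the matrix and of TGF-β signaling were counted in lists. In TgNotch3R169C arteries, 1 of 20 microfibril and elastic fibre genes was called: *Eln*, which encodes elastin, at 801 ± 111 CPM against 533 ± 66.2 CPM (log2 fold change 0.59, SE 0.094, edgeR adjusted p = 0.0189). Without the choroid-rich libraries, its value was 0.58 (adjusted p = 0.221). By DESeq2, 6 of the 20 were called, all of them higher, where 75 genes in all were called. The lists were chosen with earlier results of these data known, so these counts are a description. Of the 20, 15 had a positive log2 fold change (median 0.22, beside -0.01 over all genes). None of 19 ADAMTS proteases tested (median 0.21), of 17 genes of latent TGF-β and its release (0.10), of 12 receptors and Smads (0.02), or of 12 TGF-β response genes (0.06) passed the edgeR test. The genes with an unadjusted p below 0.05 numbered 6, 6, 2, and 3 in these lists, and DESeq2 called 1, in the list of latent TGF-β and its release. Positive log2 fold changes numbered 15, 10, 7, and 12 in the same lists. Without the choroid-rich libraries, they numbered 14, 13, 8, and 10, and 13 of the 20 microfibril and elastic fibre genes.

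In *Notch3-/-* arteries, *Adamts8*, a protease related to the ADAMTS-like family, was lower (log2 fold change -0.78, SE 0.140, edgeR adjusted p = 0.0104), as was *Tgfb3*, a ligand that LTBPs hold latent (-0.46, SE 0.063). The *Tgfb3* level was 71.1 ± 4.71 CPM against 97.8 ± 11.0 CPM. No other gene of the 5 lists was called by edgeR. DESeq2 called 1 more, *Timp3*, a metalloprotease inhibitor, which was lower (-0.25, SE 0.071, edgeR adjusted p = 0.184) and is named after its value was seen. Between the control groups, where 7.92% of all genes were called, *Adamts8* and *Tgfb3* were lower at 12 months as well (-0.73 for *Adamts8* and -0.70 for *Tgfb3*), along with 10 of 20 microfibril and elastic fibre genes. The largest of these differences were those of *Fbn2*, a fibrillin (-0.93), *Lox* (-0.69) and *Loxl2* (-0.66), which cross-link elastin and collagen, and *Eln* (-0.66). *Mmp9*, a matrix protease, was higher (1.19, SE 0.281, edgeR adjusted p = 0.017). Of the other lists, 8 genes of latent TGF-β and its release, 3 ADAMTS proteases, 4 TGF-β response genes, and 1 receptor (*Tgfbr1*) were lower. Without the 4 choroid-rich libraries, where 2.22% of all genes were called, the genes called lower numbered 5 of the 20 microfibril and elastic fibre genes, 6 of latent TGF-β and its release, 1 ADAMTS protease, 2 TGF-β response genes, and 0 receptors and Smads.

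**Figure D4:**
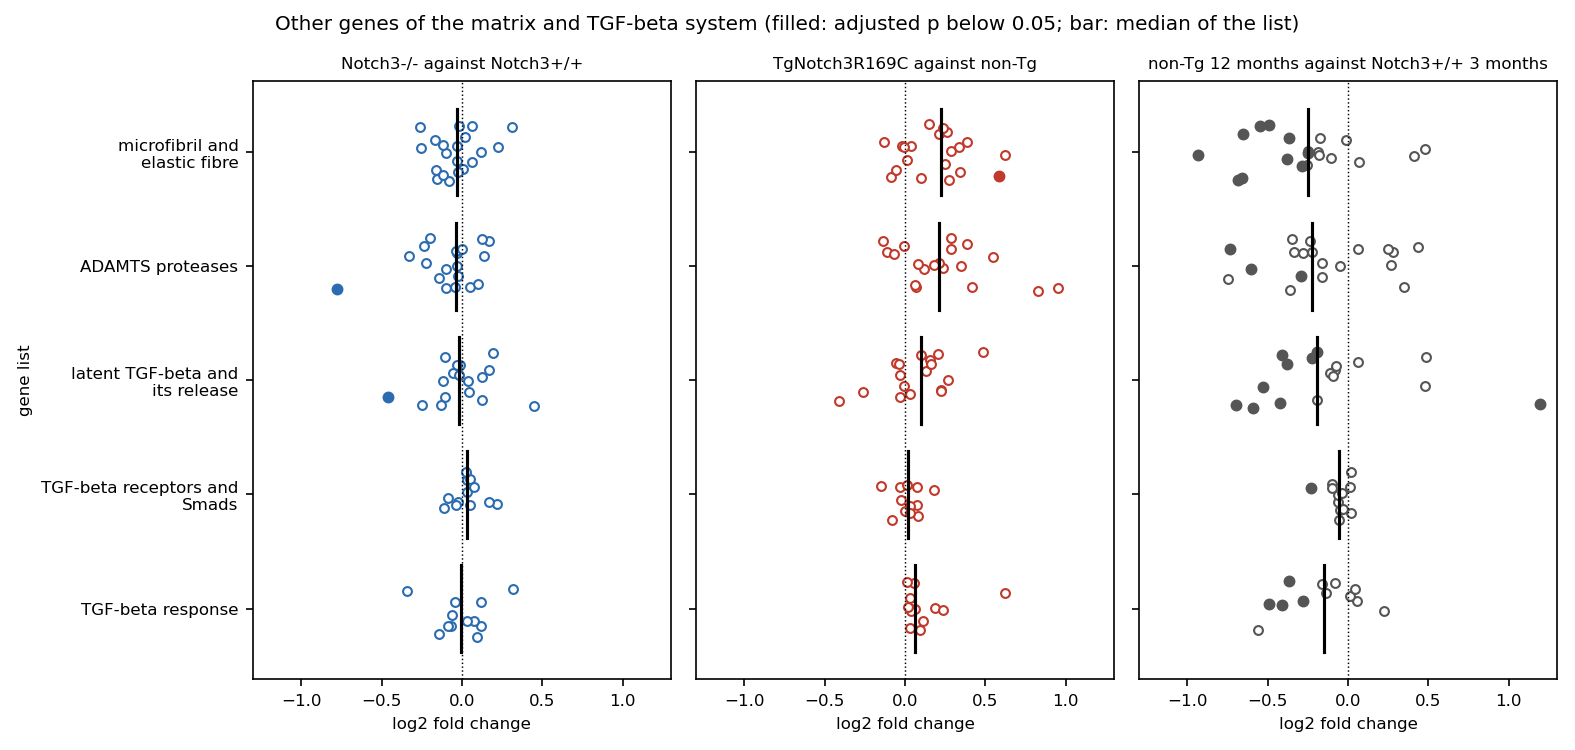
Log2 fold change (x axis) of the genes of 5 matrix and TGF-β lists (rows) in 3 comparisons (panels). Each circle is a gene, filled where the edgeR adjusted p was below 0.05, and the bar is the median of the list. The medians in TgNotch3R169C against non-Tg arteries lie between 0.02 and 0.22, with 1 filled circle (Eln).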

How the data were processed

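The authors deposited a table of raw counts per gene for 32 libraries (poly(A) selection, stranded kit). Per the submitters' processing notes, reads were handled with bcl2fastq 2.20.0.422, cutadapt 1.10, Bowtie2 2.2.8, STAR 2.5.3a, and HTSeq 0.6.1p1 on mm39. The strand setting of the counting is not given in the sources used here. Library totals were 20289487 to 54481934 counts.

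Groups of 8 were compared with edgeR 4.0.16 in R 4.3.3 (filterByExpr, TMM, quasi-likelihood test, Benjamini-Hochberg adjustment over all genes tested, threshold 0.05). P values measure the spread between mice. CPM values used TMM library sizes over all 32 libraries, and an offset of 0.1 was added before log2. All 10 members passed the filter on low counts in each comparison. Alternatives were DESeq2 1.42.0 (which the study used for 2-group tests), RLE scaling, other filters, 1 fit of all 4 groups, covariates, a replicate block, and each library left out. The fit was tested on simulated data. Correlations used Python with within-group permutations.

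The members and gene lists were chosen with earlier results of these data known. Named genes are the members, *Notch3*, up to 4 called genes per list and comparison by size, and, for *Adamtsl2* and *Ltbp2*, the 5 genes of highest r with at least 5 CPM, of which 1 is not reported here. Leaving out the choroid-rich libraries was chosen after seeing the data.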

Additional observations from a re-analysis of the deposited data

Results flagged for a closer look

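In 2 of 40 sets of a member and a group, 1 library stood apart from the other 7 by a gap above Dixon's limit for 8 samples (relative to the range of the group). Chance gives about 1 in 20 such sets. Both were in *Notch3-/-* replicate 1. *Ltbp2* was at 46.1 CPM there, with the next library at 28.2 CPM. *Adamtsl5* was at 94.2 CPM, with the next library at 78.9 CPM. Without this library, the log2 fold change of *Ltbp2* in *Notch3-/-* against *Notch3+/+* arteries was 0.57 (edgeR adjusted p = 0.114) and that of *Adamtsl5* was 0.09 (adjusted p = 0.800).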

How the results depend on the processing

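In TgNotch3R169C against non-Tg arteries, on which the members were chosen, calls of members say nothing about stability. The log2 fold change of *Adamtsl2* was between 1.03 and 1.21 over 25 alternatives, which is a description as well. In *Notch3-/-* against *Notch3+/+* arteries, none was called, except 1 (*Ltbp2*) by DESeq2. Between the control groups, 4 were called, against 2 without the filter on low counts, 7 by DESeq2, 0 with smooth muscle markers in the fit, 0 without the choroid-rich libraries, and 1 to 4 with any 1 library left out. The fewest (1) remained without non-Tg replicate 6, and 2 without *Notch3+/+* replicates 2, 5, 6, or 7. These counts include *Adamtsl2* wherever it was called, and nothing is read from its call. Over all genes, the 20 calls in TgNotch3R169C against non-Tg arteries became 75 by DESeq2, 6 with the replicate block, and 2 without the choroid-rich libraries. The 115 calls in *Notch3-/-* mice became 282 by DESeq2, 174 with all 4 groups in 1 fit, 69 with fibroblast markers, and 16 with smooth muscle markers in the fit. The 1398 between the controls became 2362 by DESeq2, 715 with the replicate block, 402 without the choroid-rich libraries, and 0 with smooth muscle markers. The causes were not tested.

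With the replicate number as a block, 0 members were called in *Notch3-/-* mice and 1 (*Adamtsl3*) between the controls, and *Adamtsl2* was at 1.15 in TgNotch3R169C against non-Tg arteries. What the replicate numbers stand for is not among the labels. Same-numbered libraries had correlations of -0.15 to 0.35 in the *Notch3-/-* comparison and -0.26 to 0.43 in the TgNotch3R169C comparison. In each, 4 of 8 were above 0.1, and 3 and 1 correlated best with their own number. Whether same-numbered libraries had anything in common was not tested further.

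Log2 fold changes reversed sign in these cases. With smooth muscle markers in the fit, *Ltbp1* was at 0.51 and *Ltbp3* at -0.0018 in *Notch3-/-* mice, and *Adamtsl4* was at 0.11, *Ltbp1* at 0.39, and *Ltbp4* at 0.076 between the controls. In TgNotch3R169C against non-Tg arteries, *Ltbp1* was then at 0.10 and *Adamtsl5* at 0.003. Between the controls, the summed marker levels of the groups did not overlap, and in the *Notch3-/-* comparison they overlapped little. In those comparisons, this fit hardly separates marker level from group. With fibroblast markers, *Ltbp4* was at -0.0064 in *Notch3-/-* mice. *Adamtsl3* was at 0.021 and *Thsd4* at 0.040 without the choroid-rich *Notch3-/-* library (replicate 8). With any 1 library left out, *Adamtsl3* was between -0.10 and 0.021 and *Thsd4* between -0.061 and 0.044 in this comparison. Of the 11 pairs of members and marker lists, 4 passed by Spearman's ρ and 5 without the 2 farthest libraries.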
